A study of Mus musculus with 6 samples.

Results

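The genes described here are the neighbours of *Postn* on mouse chromosome 3, the gene for the matricellular protein periostin, together with *Tm4sf1*, which lies among them. They were chosen by position and level: every gene on chromosome 3 that starts between 44361109 and 64391034 of GRCm38, 10 Mb on either side of *Postn*, and that exceeded 1 CPM (reads of a gene scaled to the library's total) in at least 2 of the 6 samples. *Postn* itself, *Mbnl1* and *Ndufc1* were left out. This gave 60 genes of the 14533 tested and of the 41388 in the count tables. Of them, 21 lie on the low-coordinate side of *Postn* and 39 on the high side. The count tables list 156 genes in the window, of which 93 did not reach the level required, and 18 had no read in any sample. *Tm4sf1* was selected on its large difference in these same samples, so its values are given as a description without a test.

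The samples were primary chondrocytes from the femoral head cartilage of male mice aged 21 days, kept in culture for 2 days without treatment, from 3 *Postn*-/- and 3 *wt* mice (littermates from heterozygous crosses), and RNA-seq counted reads per gene. The *Postn*-/- mice were homozygous for the germline allele *Postn* tm1Jmol, so every cell carried it, and the strain of both genotypes is labelled B6/129, with B6129SF2/J as the *wt* background. In this design, loss of periostin and any sequence difference that travels with the targeted allele cannot be told apart. Total counts ran from 20587640 to 26572260 reads, at which 3 counts equal 0.113 to 0.146 CPM. On the first principal component, with 31.9% of the variance, *wt* replicate 1 stood at 47.7 and the other 5 samples between -17.4 and -0.0175. The 9 chondrocyte markers summed to between 31178 and 39103 normalized CPM in *Postn*-/- and to between 21628 and 35335 in *wt*, and none of them was at 0. *Col2a1* and *Chad* were higher in *Postn*-/- at an unadjusted p at or below 0.05 in the edgeR test (adjusted p 0.717 for both), beside 3.95% of all tested genes. No other marker of this list reached that threshold, and *Col11a1* (-0.14) and *Hapln1* (-0.03) had negative log2 fold changes. The summed markers of fibroblasts and synovium (2944 to 5433 in *Postn*-/-, 3681 to 6226 in *wt*), osteoblasts (1013 to 1909, 790 to 3454), macrophages and blood (28.6 to 49.7, 18.9 to 32.9) and mural cells and muscle (445 to 545, 350 to 594) overlapped between genotypes. In the last list *Rgs5* was higher in *Postn*-/-, with 3.86, 1.22 and 3.15 normalized CPM against 0.961, 0.769 and 1.77 in *wt*, overlapping samples and an unadjusted p of 0.0347 in the edgeR test. *Postn* itself measured 4.66, 4.27 and 5.67 normalized CPM in the *Postn*-/- replicates and 10.1, 10.3 and 6.90 in the *wt* replicates, so reads of the targeted gene were lower but remained, and the gene-level counts do not show from which exons.

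Genes that lie near a targeted locus share its chromosome and are inherited together with it more often than genes farther away. They have no common function here: the window holds receptors for extracellular nucleotides, transcription factors and coactivators, enzymes of the endoplasmic reticulum and cytoskeletal proteins. *Tm4sf1* encodes a cell-surface protein of the L6 family, small membrane proteins distantly related to the tetraspanins, and is best known from endothelial and tumour cells, where it takes part in cell spreading and motility.

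The 250 bases upstream of the annotated start of 3 genes are shown because these genes carry the comparison: *Tm4sf1*, with the widest difference, *Wwtr1*, the next gene of the set on its high side, and *P2ry1*, with the lowest fold change after *Tm4sf1*. The sequences are those of RefSeq on GRCm38.p6, written in the direction of transcription. *Tm4sf1* is at chr3:57301989-57302238 on the minus strand, *Wwtr1* at chr3:57575911-57576160 on the minus strand (the first of 2 starts listed for it) and *P2ry1* at chr3:61002535-61002784 on the plus strand. Capitals mark matches on either strand to any of 4 motifs, those of TEAD factors, of AP-1, of the TATA box and of SP1, which are spelled out with their shares after the sequences.
Tm4sf1: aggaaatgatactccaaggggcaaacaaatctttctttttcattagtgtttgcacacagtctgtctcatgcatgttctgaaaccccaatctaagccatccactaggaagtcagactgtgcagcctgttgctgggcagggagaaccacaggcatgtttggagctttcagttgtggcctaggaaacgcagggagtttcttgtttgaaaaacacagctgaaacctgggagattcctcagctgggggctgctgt
Wwtr1: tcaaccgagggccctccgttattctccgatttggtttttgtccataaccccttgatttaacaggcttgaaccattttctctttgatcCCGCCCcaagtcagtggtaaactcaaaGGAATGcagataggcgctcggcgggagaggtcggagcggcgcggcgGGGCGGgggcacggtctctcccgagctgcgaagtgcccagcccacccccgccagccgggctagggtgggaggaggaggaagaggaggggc
P2ry1: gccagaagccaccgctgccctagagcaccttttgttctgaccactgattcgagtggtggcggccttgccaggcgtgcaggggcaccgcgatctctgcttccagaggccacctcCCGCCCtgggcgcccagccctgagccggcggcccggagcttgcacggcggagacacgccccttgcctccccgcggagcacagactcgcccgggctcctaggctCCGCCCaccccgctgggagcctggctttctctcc

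The *Tm4sf1* stretch held none of the 4 motifs, had a GC content of 48% and contained 1 CpG. The *Wwtr1* stretch had 61.6% GC and 18 CpG, with the TEAD motif at -136 from the start and the SP1 motif at -163 on the opposite strand and at -90. The *P2ry1* stretch had 70.8% GC and 20 CpG, with the SP1 motif on the opposite strand at -137 and -34. Over all promoters in the RefSeq table the median GC content was 52.4% and the median number of CpG was 6, and 18.8% of them had 0 or 1 CpG. Of the 60 genes, 47 had a promoter in the table. In windows from 250 bases before to 50 bases after the start, searched on both strands, the TEAD motif GGAATG was found in 8 of the 47 (17.0%, beside 16.6% of all genes in the table). The AP-1 motif TGANTCA was in 6 (12.8%, beside 8.97%), the TATA box TATAAA in 5 (10.6%, beside 15.7%) and the SP1 motif GGGCGG in 29 (61.7%, beside 38.2%). These shares describe the letters in the windows only.

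*Tm4sf1* (ENSMUSG00000027800, chromosome 3, 57285611 to 57301919, minus strand) starts 2.92 Mb from *Postn*. Its read counts were 16, 18 and 17 in *Postn*-/- chondrocytes and 3181, 1619 and 1260 in *wt* chondrocytes. After TMM normalization, which scales each sample for library size and composition, this was 0.643, 0.732 and 0.810 CPM in *Postn*-/- and 122, 73.2 and 60.4 CPM in *wt*. The *Postn*-/- samples were close together, the *wt* samples were spread by 2.03-fold from lowest to highest, and the lowest *wt* sample was 74.5 times the highest *Postn*-/- sample.

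The means were 0.728 ± 0.0837 CPM in *Postn*-/- and 85.3 ± 32.7 CPM in *wt* (SD, n = 3 each), so the *Postn*-/- mean was 0.854% of the *wt* mean, with a fitted log2 fold change of -6.87 (standard error 0.34). Without *wt* replicate 1, the highest *wt* sample and the one that stood apart, the log2 fold change was -6.51. Per kilobase of exon, a scale on which genes can be compared, *Tm4sf1* was at 25.4 normalized CPM in *wt*, the rank of 7 among the 60 genes and above 84.2% of all tested genes. In *Postn*-/- it was at 0.217 per kilobase, the rank of 56 and above 3.03% of tested genes. It was the single gene of the 60 to pass the level filter through 1 genotype alone. None of its 50-base transcript words occurred in a transcript of another gene, and its exons overlapped no other gene in the tables.

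The other genes of the L6 family that were in the tables had low counts in both genotypes. *Tm4sf4*, the neighbour of *Tm4sf1* with a start at 57425314, had 5, 6 and 3 reads in *Postn*-/- and 2, 6 and 2 in *wt*. *Tm4sf5*, on chromosome 11, had 16, 24 and 23 reads in *Postn*-/- and 9, 8 and 13 in *wt*. This was 0.643, 0.976 and 1.10 normalized CPM against 0.346, 0.362 and 0.623, with every *Postn*-/- sample above every *wt* sample. *Tm4sf19* and *Tm4sf20* had at most 4 reads in any sample. None of these 4 genes passed the level filter, so *Tm4sf1* was the only L6 gene tested.

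*Tm4sf1* is known from endothelial cells, and 10 endothelial markers were examined, of which 6 passed the level filter. They summed to 48.9 to 57.7 normalized CPM in *Postn*-/- and to 36.6 to 41.0 in *wt*, without overlap. Most of the sum was *Eng*, a TGF-beta co-receptor that other cells express too, with 45.7, 45.7 and 33.0 CPM in the *Postn*-/- replicates and 30.5, 27.2 and 27.1 in the *wt* replicates (unadjusted p = 0.00646, adjusted p = 0.717 in the edgeR test). *Vwf* was also higher in every *Postn*-/- sample, with 4.14, 4.11 and 4.19 CPM against 3.08, 3.44 and 3.79 (unadjusted p = 0.194 in the edgeR test). The other 8 markers overlapped between genotypes, *Plvap* and *Cldn5* with lower means in *Postn*-/-. *Pecam1* measured 2.81, 3.05 and 4.05 CPM in the *Postn*-/- replicates and 2.38, 2.22 and 4.60 in the *wt* replicates. *Cdh5* was at 0.285 to 0.402 CPM in *Postn*-/- and 0 to 0.431 in *wt*, and *Cdh5* and *Cldn5* were at 0 in 1 and 2 samples, respectively. The part of these cells in the result was not tested. In bulk samples, fewer cells of a type and less RNA per cell cannot be told apart.

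The genes on either side of *Tm4sf1* were measured in the same libraries. Per kilobase of exon, all 6 described here were below *Tm4sf1* in *wt* and above it in *Postn*-/-. *Wwtr1*, which encodes the Hippo pathway coactivator TAZ, measured 72.0, 68.4 and 67.4 normalized CPM in the *Postn*-/- replicates and 46.9, 81.1 and 58.5 in the *wt* replicates. The *Postn*-/- samples lay within the *wt* range, and the log2 fold change was 0.16 (95% interval -0.28 to 0.59). It turned to -0.01 without *wt* replicate 1, and it was 0.40 without *wt* replicate 2, with an unadjusted p of 0.0187 in the edgeR test. *Commd2*, a COMM-domain protein linked to endosomal sorting, measured 47.1, 45.7 and 43.7 CPM in the *Postn*-/- replicates and 59.0, 46.0 and 53.9 in the *wt* replicates. These overlapped as well, with a log2 fold change of -0.22 (95% interval -0.49 to 0.05), which was -0.31 without *wt* replicate 2, with an unadjusted p of 0.0237. Over the alternatives it ran from -0.31 to -0.13, with unadjusted p from 0.0237 to 0.275 in their tests. *Ankub1* measured 0.924, 1.46 and 2.14 CPM in the *Postn*-/- replicates and 1.00, 0.814 and 1.34 in the *wt* replicates, an overlap with wide spread (0.51, 95% interval -0.35 to 1.38, 0.18 to 0.78 over the alternatives).

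On the other side, *Mab21l1*, a developmental gene of the eye and nervous system that lies within *Nbea* on the opposite strand, measured 1.41, 0.935 and 1.10 CPM in the *Postn*-/- replicates and 1.19, 0.136 and 0.910 in the *wt* replicates. The *wt* spread came from replicate 2, with 3 reads, and the interval of the log2 fold change of 0.60 ran from -0.74 to 1.94 (0.12 to 1.23 over the alternatives). Of its transcript words, 38.1% occur also in *Nbea* transcripts, so its counts are uncertain. *Nbea*, a scaffold of membrane traffic, measured 5.83, 6.26 and 7.72 CPM in the *Postn*-/- replicates and 5.42, 5.84 and 5.80 in the *wt* replicates, with overlap between 5.83 and 5.84. *Dclk1*, a microtubule-binding kinase, measured 48.2, 40.8 and 28.5 CPM in the *Postn*-/- replicates and 45.3, 35.9 and 56.2 in the *wt* replicates, which overlapped widely. The 3 genes of the set on each side of *Tm4sf1* thus had overlapping genotypes and fold changes whose intervals included 0.

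**Figure D1:**
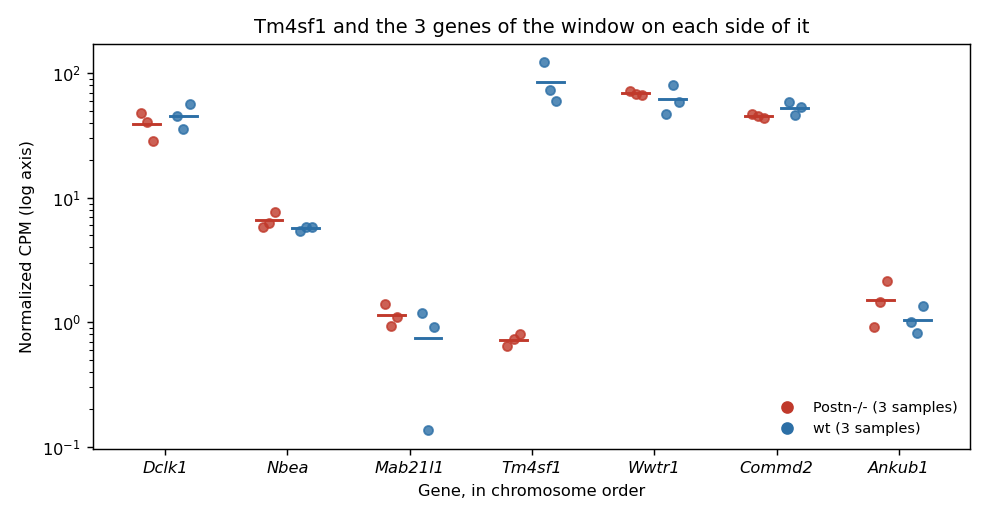
Normalized CPM (log axis) of *Tm4sf1* and the 3 genes of the set on each side of it, in chromosome order; each point is 1 sample (3 *Postn*-/-, 3 *wt*) and each bar the mean of a genotype. *Tm4sf1* sits below 1 CPM in every *Postn*-/- sample and at 60.4 CPM or more in every *wt* sample, and the genotypes of the 6 neighbours overlap.

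Over the set, the quasi-likelihood test of edgeR, adjusted by the Benjamini-Hochberg method over all tested genes, gave an adjusted p at or below 0.05 to 0 of the 59 genes other than *Tm4sf1*, beside 0.0138% of all tested genes. No other tool or setting gave an adjusted p of that size to any of the 59: the count stayed at 0 with DESeq2, with limma's voomWithQualityWeights and in the other alternatives. At an unadjusted p at or below 0.05, the edgeR test gave 2 genes higher in *Postn*-/-, *P2ry14* and *Slc33a1*, beside 3.95% of all tested genes, and 4 lower, *P2ry1*, *Maml3*, *Exosc8* and, through its selection on this contrast, *Tm4sf1*, beside 2.35%. Without *Tm4sf1* these were 5 of 59 genes (8.47%), beside 6.30% of all tested genes and 46 of 644 other tested genes of chromosome 3 (7.14%). DESeq2's Wald test gave 1 higher, beside 3.30% of all tested genes, and 5 lower with *Tm4sf1* counted, beside 2.70%.

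The genotypes did not overlap in 5 genes with every *Postn*-/- sample above every *wt* sample (*Rfxap*, *Med12l*, *P2ry14*, *Arhgef26* and *Slc33a1*), beside 7.03% of all tested genes, and in 6 genes with every *Postn*-/- sample below (*Pabpc4l*, *Maml3*, *Ufm1*, *Exosc8*, *Tm4sf1* and *P2ry1*), beside 6.57%. Without *Tm4sf1* this was 10 of 59 genes (16.9%), beside 13.6% of all tested genes and 86 of the 644 (13.4%). The shares of the set lay close to those of the rest of the chromosome, and with 59 genes a share moves by more than 1 percentage point for each gene. These shares leave out the other genes of the window that the rule excluded, *Postn*, *Mbnl1* and *Ndufc1*, all lower in *Postn*-/- without overlap and with unadjusted p of 0.00362, 7.31e-05 and 0.0397 in the edgeR test. *Ndufc1*, a subunit of respiratory complex I, averaged 84.9 ± 3.47 CPM in the knockout and 101 ± 7.37 in *wt* (SD, n = 3 each).

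The median log2 fold change of the 60 genes was -0.03, with 28 positive and 32 negative values, beside 0.0042 over all tested genes. It was -0.02 without *Tm4sf1* and 0.06 when *wt* replicate 3 was left out. Of the 60 genes, 51 (85.0%) had a log2 fold change of under 0.5 in size, beside 90.4% of all tested genes and 88.0% of the other genes of chromosome 3. The central 90% of the log2 fold changes ran from -0.61 to 0.50 in the 59 genes without *Tm4sf1* and from -0.49 to 0.63 in the other genes of chromosome 3.

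**Figure D2:**
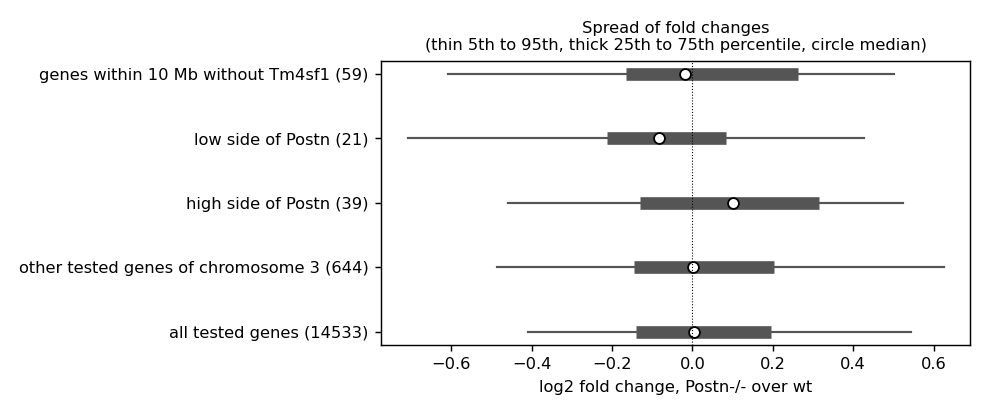
Distribution of the log2 fold change (*Postn*-/- over *wt*) in the 59 genes without *Tm4sf1*, in the 21 genes on the low side and the 39 on the high side of *Postn* (which include *Tm4sf1*), in the other tested genes of chromosome 3 and in all tested genes; the circle is the median, the thick bar the 25th to 75th and the thin line the 5th to 95th percentile. The medians lie between -0.08 and 0.10.

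On the low side 7 of 21 genes had a positive and 14 a negative log2 fold change (median -0.08), and on the high side 21 of 39 were positive and 18 negative (median 0.10). Within 2.5 Mb of *Postn*, 1 of 18 genes had an unadjusted p at or below 0.05 in the edgeR test, as did 2 of 25 genes between 2.5 and 5 Mb, *Tm4sf1* not counted, and 2 of 16 genes between 5 and 10 Mb, beside 6.30% of all tested genes. Both genes with the lowest fold changes, *Tm4sf1* and *P2ry1*, lie on the high side. Between them lie genes of the set with overlapping genotypes, *Med12l* and *P2ry14*, which were higher in every *Postn*-/- sample, and the left-out *Mbnl1*, which was lower.

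The nearest genes of the set to *Postn* on the low side were *Ufm1*, *Frem2* and *Proser1*, and on the high side ENSMUSG00000095832, which GENCODE M21 does not list, *Supt20* and *Exosc8*. *Frem2*, an extracellular matrix protein of basement membranes, measured 1.21, 1.71 and 1.57 CPM in the *Postn*-/- replicates and 1.19, 1.22 and 0.910 in the *wt* replicates, and its lowest *Postn*-/- sample lay just under the highest *wt* sample. *Proser1* measured 9.36, 10.1 and 9.96 CPM in the *Postn*-/- replicates and 9.69, 10.8 and 9.68 in the *wt* replicates, with full overlap and an interval of -0.37 to 0.30. *Supt20*, a subunit of the SAGA histone acetyltransferase complex, measured 36.7, 40.8 and 43.1 CPM in the *Postn*-/- replicates and 47.3, 38.4 and 44.5 in the *wt* replicates. Its log2 fold change was -0.11 (95% interval -0.39 to 0.17, -0.19 to -0.043 over the alternatives). ENSMUSG00000095832, which shares 314 exon bases with *Supt20*, was also at -0.11 (95% interval -0.41 to 0.20), and at 0.0068 without *wt* replicate 1.

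**Figure D3:**
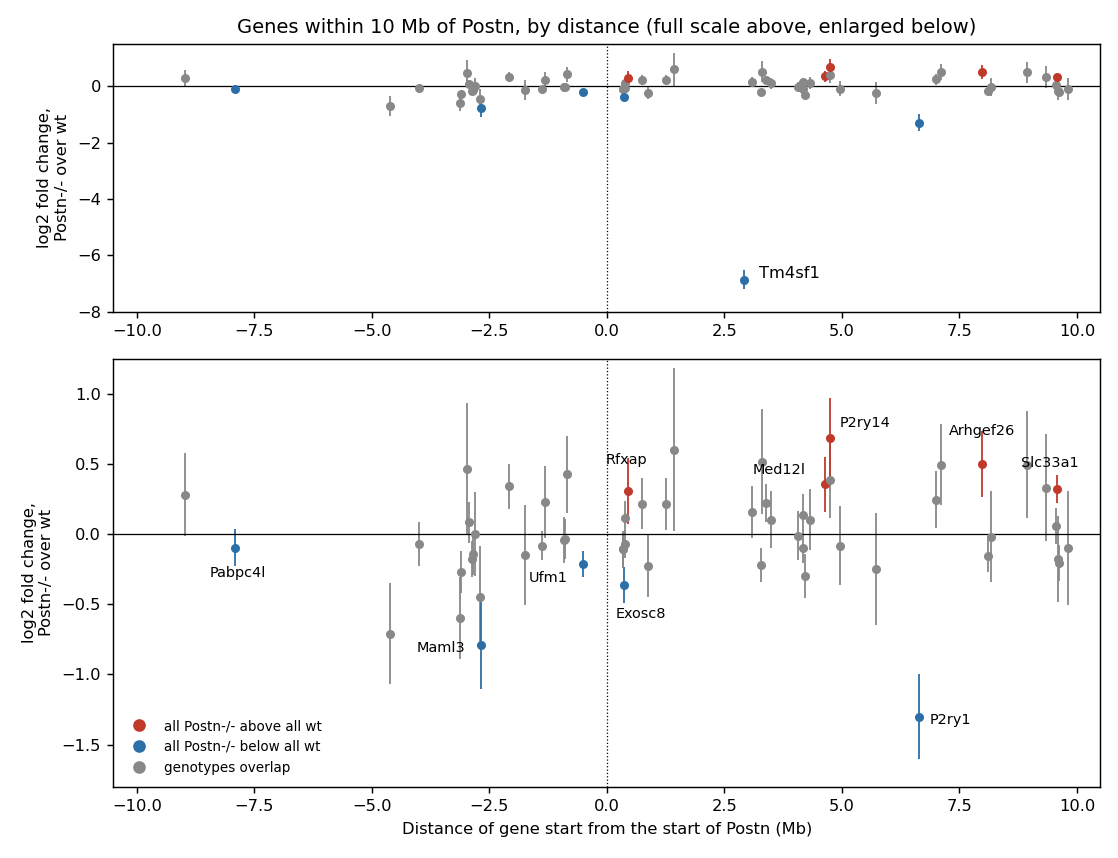
Log2 fold change (*Postn*-/- over *wt*) of the 60 genes against the distance of their start from that of *Postn* in Mb, at full scale above and enlarged without *Tm4sf1* below; bars are standard errors, and colours mark genes whose genotypes do not overlap. *Tm4sf1* stands at -6.87, the next lowest gene, *P2ry1*, at -1.30, and the genes without overlap are scattered over both sides.

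Membrane proteins and receptors were the largest group, with 15 genes, of which 8 had a positive and 7 a negative log2 fold change. At an unadjusted p at or below 0.05, *P2ry14* and *Slc33a1* were higher and *P2ry1* was lower, not counting *Tm4sf1*, beside 6.30% of all tested genes. *P2ry1*, the G protein-coupled receptor for ADP, measured 1.13, 1.18 and 0.620 normalized CPM in the *Postn*-/- replicates, from 28, 29 and 13 reads, and 2.08, 2.67 and 2.54 in the *wt* replicates, from 54, 59 and 53 reads. All 3 *Postn*-/- samples lay below the lowest *wt* sample. The means were 0.975 ± 0.309 and 2.43 ± 0.312 CPM (SD, n = 3 each). Its log2 fold change was -1.30 (standard error 0.30, 95% interval -2.0 to -0.60; unadjusted p = 0.00274, adjusted p = 0.717 in the edgeR test). Over the alternatives the fold change stayed between -1.48 and -1.07 and the adjusted p between 0.238 and 0.983. Of its transcript words, 22.0% occur also in *Gm37035*, while its exons overlapped no other gene in the count tables. Whether any of its reads were lost through the shared words was not tested. The left-out gene *Mbnl1*, which starts at 60501252 between *Tm4sf1* and *P2ry1*, averaged 379 ± 32.6 CPM in the knockout and 831 ± 135 in *wt* (SD, n = 3 each).

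*P2ry14*, the receptor for UDP-glucose, measured 2.33, 1.99 and 2.34 CPM in the *Postn*-/- replicates and 1.77, 0.950 and 1.39 in the *wt* replicates. Every *Postn*-/- sample lay above every *wt* sample, in the direction opposite to *P2ry1*. The log2 fold change was 0.69 (standard error 0.28, 95% interval 0.03 to 1.35) with an unadjusted p of 0.0426 from the edgeR test, and the adjusted p was 0.717 (0.305 to 0.983 over the alternatives). The unadjusted p was 0.0947, 0.0591 and 0.104 without *Postn*-/- replicate 1, 2 or 3, with log2 fold changes of 0.65, 0.76 and 0.65. It was 0.0172, 0.127 and 0.0833 without *wt* replicate 1, 2 or 3, and 0.0619 with DESeq2. Over the alternatives the log2 fold change ran from 0.48 to 0.92. *P2ry14* and *Gpr171*, an orphan receptor averaging 1.62 ± 0.275 CPM in the knockout and 1.24 ± 0.209 in *wt* (SD, n = 3 each), both lie within *Med12l* on the opposite strand and share no exon base with it. Whether counting used strand is not given in the sources used here, and the cDNA kit does not mark strand. Reads from *Med12l* introns over the exons of *P2ry14* or *Gpr171* therefore could not be told from reads of those genes.

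*Slc33a1*, the acetyl-CoA transporter of the endoplasmic reticulum, measured 47.4, 42.8 and 42.2 CPM in the *Postn*-/- replicates and 35.0, 36.0 and 34.8 in the *wt* replicates. The *wt* samples were within a narrow range and all lay below the *Postn*-/- samples. The log2 fold change was 0.32 (standard error 0.10, 95% interval 0.09 to 0.55). In the edgeR test the unadjusted p was 0.0122 and the adjusted p was 0.717 (0.283 to 0.983 over the alternatives). Without *Postn*-/- replicate 1 the unadjusted p was 0.0554 (log2 fold change 0.27), and without the level filter it was 0.0591 (0.30). The antisense gene *Gm26850* shares 1136 exon bases with it (32.0% of the exon bases of *Slc33a1*). *Gm26850* itself averaged 0.878 ± 0.194 CPM in the knockout and 0.991 ± 0.194 in *wt* (SD, n = 3 each), with overlapping samples.

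Another 3 membrane proteins were picked after their values were seen, for their known roles. *Slc7a11*, the cystine transporter that feeds glutathione synthesis, measured 17.5, 21.5 and 25.2 CPM in the *Postn*-/- replicates and 21.5, 24.2 and 21.5 in the *wt* replicates, and the 95% interval of its log2 fold change, -0.43 to 0.29, spanned 0. *Pcdh18*, a protocadherin, measured 2.61, 6.06 and 3.00 CPM in the *Postn*-/- replicates and 5.57, 8.32 and 5.22 in the *wt* replicates. It overlapped through *Postn*-/- replicate 2 alone (log2 fold change -0.71, 95% interval -1.53 to 0.12, -1.19 to -0.47 over the alternatives with unadjusted p from 0.00397 to 0.254 in their tests). *Mme*, the cell-surface peptidase neprilysin, measured 22.2, 58.6 and 32.3 CPM in the *Postn*-/- replicates and 17.5, 37.3 and 25.6 in the *wt* replicates. Both genotypes varied widely and overlapped (log2 fold change 0.49, 95% interval -0.39 to 1.38, 0.022 to 0.81 over the alternatives with unadjusted p from 0.00398 to 0.947 in their tests). The other membrane genes were overlapping as well, from *Pcdh10* at the low edge of the window (1.84 ± 0.193 CPM in the knockout and 1.52 ± 0.509 in *wt*; SD, n = 3 each) to *Sucnr1*, the succinate receptor, with 1.21, 0.691 and 0.953 CPM in the *Postn*-/- replicates and 0.961, 0.724 and 1.73 in the *wt* replicates.

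**Figure D4:**
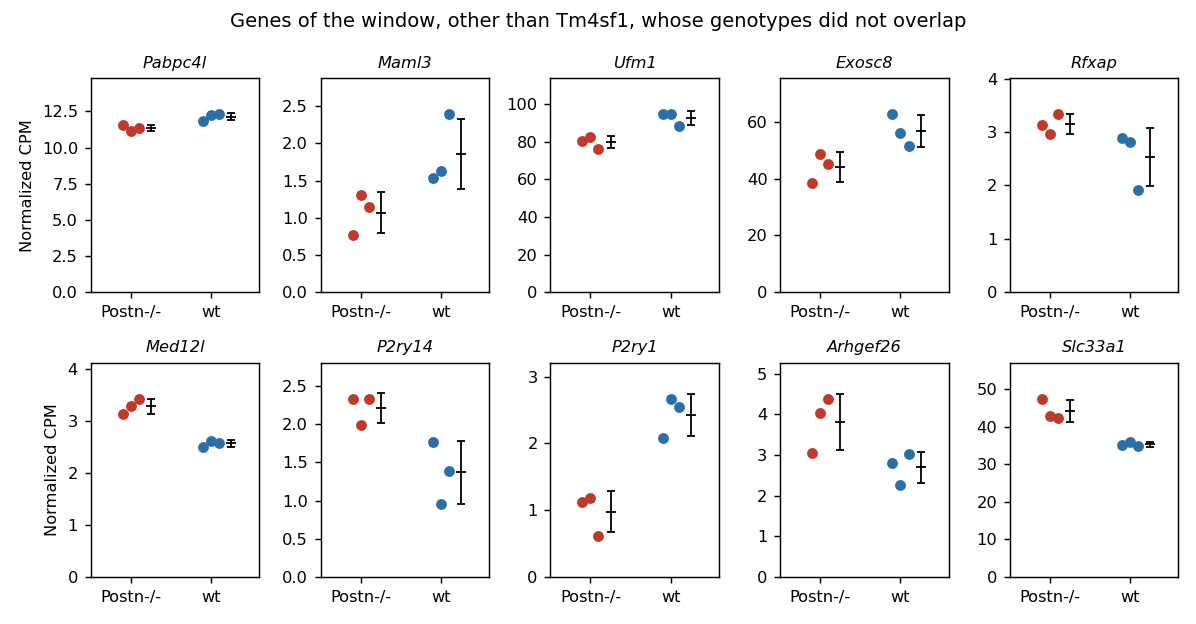
Normalized CPM per sample of the 10 genes other than *Tm4sf1* whose genotypes did not overlap, in chromosome order; points are samples (3 *Postn*-/-, 3 *wt*), and the mark beside them is the mean with its SD, on axes that start at 0. The means differ most, relative to the level, in *P2ry1* (log2 fold change -1.30) and least in *Pabpc4l* (-0.10).

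Among 14 genes of transcription and chromatin, 7 log2 fold changes were positive and 7 negative, and 1 gene (7.14%), *Maml3*, had an unadjusted p at or below 0.05, beside 6.30% of all tested genes. *Maml3*, a coactivator of Notch signalling, measured 0.763, 1.3 and 1.14 CPM in the *Postn*-/- replicates and 1.54, 1.63 and 2.40 in the *wt* replicates. All *Postn*-/- samples lay below all *wt* samples, from 19 to 32 reads against 36 to 50. The log2 fold change was -0.79 (standard error 0.31, 95% interval -1.52 to -0.06). In the edgeR test the unadjusted p was 0.0372 and the adjusted p was 0.717 (0.391 to 0.983 over the alternatives). The unadjusted p was 0.114 without *Postn*-/- replicate 1 (log2 fold change -0.59) and 0.0669 without *Postn*-/- replicate 3 (-0.84). It was 0.127 without *wt* replicate 3 and 0.0665 with surrogate variables (-0.73). Over the alternatives the log2 fold change ran from -0.96 to -0.57.

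Another 2 genes of this group were apart without reaching that threshold. *Rfxap*, a subunit of the RFX complex that activates MHC class II genes, measured 3.13, 2.97 and 3.34 CPM in the *Postn*-/- replicates and 2.88, 2.81 and 1.92 in the *wt* replicates (log2 fold change 0.31, 95% interval -0.24 to 0.85, 0.14 to 0.49 over the alternatives). *Med12l*, a paralog of the Mediator kinase module subunit MED12, measured 3.13, 3.29 and 3.43 CPM in the *Postn*-/- replicates and 2.5, 2.62 and 2.59 in the *wt* replicates (0.35, 95% interval -0.10 to 0.81). Of the exon bases of *Med12l*, 16.1% overlap *Igsf10* on the opposite strand. *Foxo1* and *Smad9* were picked after their values were seen. *Foxo1*, a transcription factor of cartilage homeostasis, measured 38.8, 33.1 and 32.3 CPM in the *Postn*-/- replicates and 33.5, 23.1 and 25.7 in the *wt* replicates. The genotypes overlapped through *wt* replicate 1 (log2 fold change 0.34, 95% interval -0.04 to 0.71, 0.23 to 0.51 over the alternatives with unadjusted p from 0.00643 to 0.214 in their tests). *Smad9*, a mediator of BMP signalling, measured 19.3, 17.9 and 16.7 CPM in the *Postn*-/- replicates and 16.7, 16.3 and 16.8 in the *wt* replicates, and its interval ran from -0.17 to 0.40.

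Of 4 genes of RNA processing and translation, 1 log2 fold change was positive and 3 were negative, and *Exosc8* had an unadjusted p at or below 0.05, beside the same 6.30%. *Exosc8*, a subunit of the RNA exosome that starts close to *Postn* on its high side, measured 38.4, 48.8 and 45.0 CPM in the *Postn*-/- replicates and 62.7, 55.9 and 51.6 in the *wt* replicates. All *Postn*-/- samples lay below all *wt* samples. The means were 44.1 ± 5.26 and 56.7 ± 5.58 CPM (SD, n = 3 each), with a log2 fold change of -0.37 (standard error 0.13, 95% interval -0.66 to -0.07). In the edgeR test the unadjusted p was 0.0218 and the adjusted p was 0.717 (0.259 to 0.983 over the alternatives). Without *Postn*-/- replicate 1 the unadjusted p was 0.0837 (log2 fold change -0.27), and without *wt* replicate 1 it was 0.0628 (-0.29). *Pabpc4l*, a poly(A)-binding protein relative outside the fixed lists, measured 11.5, 11.1 and 11.3 CPM in the *Postn*-/- replicates and 11.8, 12.2 and 12.3 in the *wt* replicates. It was apart by a small margin, with a log2 fold change of -0.10 (95% interval -0.40 to 0.20).

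The 10 genes of the endoplasmic reticulum, Golgi and ubiquitin system held the highest levels of the set, with 3 positive and 7 negative log2 fold changes and 0 genes at an unadjusted p at or below 0.05 in the edgeR test, beside 6.30% of all tested genes. *Serp1*, which protects nascent membrane proteins during stress of the endoplasmic reticulum, had the highest level per kilobase of exon (123 normalized CPM per kilobase over all samples). It measured 371, 284 and 285 CPM in the *Postn*-/- replicates and 255, 325 and 276 in the *wt* replicates, with overlap, and its log2 fold change of 0.14 became -0.0028 without *Postn*-/- replicate 1. *Rnf13*, an endosomal ubiquitin ligase (69.0 per kilobase), measured 219, 163 and 215 CPM in the *Postn*-/- replicates and 172, 162 and 177 in the *wt* replicates. Without *Postn*-/- replicate 2, the lowest of its genotype, the log2 fold change of 0.22 was 0.35, with an unadjusted p of 0.0164 from the edgeR test. It was 0.15 and 0.16 without *Postn*-/- replicate 1 or 3, with unadjusted p of 0.353 and 0.345 in that test.

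*Rab33b*, a Golgi GTPase (50.2 per kilobase), measured 161, 129 and 157 CPM in the *Postn*-/- replicates and 157, 159 and 190 in the *wt* replicates. *Alg5*, which makes the glucose donor of N-glycosylation (50.0 per kilobase), measured 181, 171 and 166 CPM in the *Postn*-/- replicates and 194, 171 and 179 in the *wt* replicates. Both overlapped, with intervals of -0.48 to 0.12 and -0.30 to 0.16. *Ufm1*, a ubiquitin-like modifier and the gene of the set nearest to *Postn* on its low side, measured 80.7, 82.8 and 76.2 CPM in the *Postn*-/- replicates and 94.8, 94.6 and 88.4 in the *wt* replicates. The genotypes did not overlap, and the log2 fold change was -0.21 (95% interval -0.43 to 0.00). Its unadjusted p was 0.0519 in the edgeR test and 0.0353 to 0.157 over the alternatives. For comparison, the median level of the 60 genes was 4.34 normalized CPM per kilobase, beside 3.63 over all tested genes.

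Of 8 genes of the cytoskeleton, vesicles and signalling inside the cell, 7 log2 fold changes were positive and 1 was negative, beside 50.8% positive over all tested genes. At an unadjusted p at or below 0.05 in the edgeR test there were 0 genes, beside 6.30%. *Spg20*, the spartin gene of hereditary spastic paraplegia (37.6 per kilobase), measured 254, 167 and 229 CPM in the *Postn*-/- replicates and 194, 155 and 210 in the *wt* replicates, with overlap (log2 fold change 0.22, 95% interval -0.20 to 0.64). Without *Postn*-/- replicate 2 this was 0.37, with an unadjusted p of 0.0485, and without *Postn*-/- replicate 1 it was 0.087, with an unadjusted p of 0.666. *Arhgef26* measured 3.05, 4.03 and 4.38 CPM in the *Postn*-/- replicates and 2.81, 2.26 and 3.02 in the *wt* replicates. The genotypes were apart by a small margin between 3.05 and 3.02 CPM. The log2 fold change was 0.50 (95% interval -0.04 to 1.05) and 0.64 without *Postn*-/- replicate 1, with an unadjusted p of 0.0369. It was 0.46 and 0.39 without *Postn*-/- replicate 2 or 3, with unadjusted p of 0.151 and 0.205. Each gene was counted in 1 group, and *Frem2* (log2 fold change 0.43), also on the matrix list, was counted with the membrane proteins. This left the matrix group with 1 gene, *Igsf10*, with 40.1, 22.3 and 19.0 CPM in the *Postn*-/- replicates and 32.5, 22.8 and 30.9 in the *wt* replicates, which overlapped. Its log2 fold change was -0.08 (95% interval -0.73 to 0.57) and -0.48 without *Postn*-/- replicate 1, with an unadjusted p of 0.0456. Its sign turned without *Postn*-/- replicate 2 (0.038) or 3 (0.12).

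The remaining genes were in no list: *Gmps*, an enzyme of guanine nucleotide synthesis, averaging 114 ± 9.99 CPM in the knockout and 131 ± 17.9 in *wt* (SD, n = 3 each), and 3 processed pseudogenes and a processed transcript at low levels. For 2 of the pseudogenes, *Gm10293* and *Gm8349*, 80.9% and 62.3% of the transcript words occur in other genes, so their counts are uncertain. The third, *Gm5139*, the last gene of the window, measured 1.69, 1.38 and 0.953 CPM in the *Postn*-/- replicates and 0.731, 1.72 and 1.92 in the *wt* replicates, and the sign of its log2 fold change depended on which library was left out. Over the 59 genes with transcripts, the median share of words found in another gene was 0.735%, and 14 genes exceeded 5%. Of all 60 genes, 16 overlapped exons of another gene.

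Of the 60 genes, 48 were above 1 CPM in all 6 samples and 12, *Tm4sf1* among them, were not. Just inside the level rule were *Gm26850*, with a second-highest CPM of 1.12, and *Sucnr1*, with 1.16, and just outside was *Trpc4*, with 0.905. The tested genes next to the window were *D3Ertd751e*, at -12.6 Mb from *Postn* (log2 fold change -0.33, standard error 0.25), and *Kcnab1*, at 10.7 Mb (-0.75, standard error 0.38).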

How the data were processed

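The authors converted 50-base single-end reads of an unstranded full-length cDNA kit to counts per gene: per the study's methods and the submitters' processing notes, STAR 2.0.4b aligned the reads and featureCounts 1.4.5 counted uniquely aligned, unambiguous ones. The processing notes list mm9, the methods name an Ensembl release of GRCm38, and the deposited positions match GRCm38. The deposited values are raw counts. The CPM and RPKM values the authors deposited beside them (RPKM is per kilobase of exon) equal those recomputed from the counts, and CPM served for the filter. Names came from GENCODE M21, which matched 40340 identifiers (97.5%).

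Of the genes in the tables, 14537 were above 1 CPM in 2 or more samples, and 14533 were tested once rRNA genes (355 in the tables) were left out. In R 4.3.3, edgeR 4.0.16 compared 3 *Postn*-/- with 3 *wt* samples (TMM, quasi-likelihood test, no covariates, Benjamini-Hochberg over all genes), with a common biological coefficient of variation of 0.208. Dividing the size of a log2 fold change by the root of its F statistic gave its standard error, and intervals are 95%. Tests were tried on simulated data first. Genes named were *Tm4sf1*, those with an unadjusted p of at most 0.05 or without overlap, the 3 nearest to *Postn* and to *Tm4sf1* on each side, the 5 highest per kilobase and those at the edges; 8 were added after their values were seen. The members and lists were chosen with earlier results of these data known. Alternatives were DESeq2 1.42.0, DESeq2's size factors, voomWithQualityWeights (limma 3.58.1) without and with surrogate variables (sva 3.50.0), 2 other filters, a replicate block and leaving out each sample. Replicates are labelled as separate samples. The p-values set the difference between genotypes against the variation between replicates, which edgeR estimates for each gene with information from the other tested genes.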

Additional observations from a re-analysis of the deposited data

How the results depend on the processing

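Of 13 alternatives, *Tm4sf1* was fitted in 12 and kept a log2 fold change between -7.06 and -6.51. None of the other 59 genes had an adjusted p at or below 0.05 in any of the 13. The count over the 60, which is *Tm4sf1* itself and restates its selection, was 0 with CPM above 1 required in all 6 samples, which removes it and 11 other genes. The count higher at an unadjusted p at or below 0.05 was 2 in the reported fit, beside 3.95% of all tested genes. It was 1 with DESeq2's Wald test (beside 3.30%), 1 without a filter (beside 3.03%) and 1 of 48 genes with the stricter filter (beside 4.16%). With surrogate variables it was 7 (beside 7.43%), and with a sample left out 1 to 4 (beside 2.12% to 5.20%). The count lower was 4 in the reported fit (beside 2.35%). It was 1 of 48 genes with the stricter filter (beside 2.29%) and 3 to 6 with a sample left out (beside 0.833% to 3.82%). Genes without overlap numbered 3 lower with the stricter filter (6 reported). With a sample left out they numbered 6 to 12 higher and 8 to 12 lower, since fewer samples overlap less often. For these settings the share without overlap was not counted over all tested genes. The counts are therefore not read as a result about the set. The median moved between -0.027 and 0.057 with a sample left out. With the replicate number as a block, 4 genes were higher and 8 lower at an unadjusted p at or below 0.05, beside 4.97% and 3.21% of all tested genes. Of the named genes, *Mme* (unadjusted p 0.00991) and *Foxo1* (0.0221), higher in *Postn*-/- within each number, passed with the block and not in the reported fit. So did *Pcdh18* (0.0126) and *Ufm1* (0.0495), lower within each number. Here the reported edgeR test and the edgeR test with the block are compared. All of them also passed in some settings without the block. *Mme* (0.00398) and *Foxo1* (0.00894) did so in limma's test with surrogate variables. In edgeR, *Pcdh18* did so without a filter (0.0197) and *Ufm1* with DESeq2's size factors (0.0458). Correlations of same-numbered samples were 0.0824, 0.155 and 0.143, under 0.1 in 1 pair, so the numbers were not taken as a pairing, although every sample correlated best with its own number, a hint from the data and not from the design. With a sample left out, the log2 fold change changed sign for *Serp1* (-0.0028 to 0.24), *Slc7a11* (-0.21 to 0.058), *Gm5139* (-0.43 to 0.15), ENSMUSG00000095832 (-0.20 to 0.0068), *Wwtr1* (-0.011 to 0.40), *Proser1* (-0.062 to 0.019), *Igsf10* (-0.48 to 0.12) and *Sucnr1* (-0.48 to 0.17). Of the other values of the 38 named genes, 433 were labelled unchanged, 14 lost and 24 gained an unadjusted p at or below 0.05. Unchanged meant the same direction and the same side of that threshold. For *Tm4sf1*, which has no p, it meant a shift of less than 1 standard error. This held for 11 of its values, counted in the 433, and 1 moved farther. The cause of these changes was not tested. Counts of 13 to 59 reads in genes such as *P2ry1* and *Maml3* limit their precision.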
